A study of Mus musculus with 6 samples.

Results

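Msl2 and Mbnl1 were the genes under a pair of the highest H3K79me2 pileups in mouse leukaemia cells driven by MN1. The peaks of each gene were taken as those of the deposited list that overlapped an mm9 window by at least 1 base. The window was chr9:100970000-101010000 for Msl2 and chr3:60270000-60435000 for Mbnl1. The Msl2 window held 2 peaks and the Mbnl1 window 3, so 5 of the 18992 peaks of the list are described. The windows carry the gene names with which they were defined, and no annotation of mm9 was used to check them. The pair was chosen from the pileups themselves, so the pileups, folds and ranks of these peaks are given as a description and were not tested.

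H3K79me2 chromatin (3 libraries) and input chromatin (3 libraries), which was sequenced without the antibody, came from leukaemic blasts. The blasts were sorted from the bone marrow of moribund mice that had received CMP-cells transformed with MN1. All libraries were of strain C57BL/6 and carried Dot1l f/f, a conditional allele that had not been inactivated, and the cells of all libraries were kept for a short time in culture (M3234 medium, FBS and the cytokines SCF, Il3 and Il6). The antibody was Abcam anti-H3K79me2 (ab3594). The labels do not tie the library numbers to separate mice. The leukaemias start from a transferred, MN1-expressing population, and no library of normal CMP-cells or of cells without Dot1l was used here, so the list allows H3K79me2 to be set against control background only. It pools the libraries: there is 1 value per peak, with no spread between replicates and no read number per library.

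H3K79me2 is a methyl mark placed by DOT1L on the globular part of histone H3. It lies over the 5′ part of transcribed genes and follows their transcription, and DOT1L is needed by leukaemias with rearranged MLL, in which long H3K79me2 domains lie over targets of the fusion protein. Msl2 encodes a RING-finger ubiquitin ligase of the MSL complex, which with Msl1, Msl3 and the acetyltransferase Kat8 acetylates histone H4, and which in Drosophila raises transcription from the male X chromosome. Mbnl1 encodes a muscleblind protein, an RNA-binding zinc-finger protein that regulates alternative splicing and that is captured by expanded CUG repeats in myotonic dystrophy. Human MBNL1 is known to be highly expressed in leukaemias with rearranged MLL. The peak list names no genes, so the partners Msl1, Msl3 and Kat8 and the relatives Mbnl2 and Mbnl3 were not placed on it and have no values here.

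The annotated starts of both genes are shown as background, and which of them is used in these cells was not tested. In RefSeq (build GRCm38.p6) each gene had 2 promoter entries, both on the plus strand. Each entry runs from 250 bases before the annotated start to 50 bases after it. They lie at chr9:101073804-101074103 and chr9:101074512-101074811 for Msl2, and at chr3:60472580-60472879 and chr3:60500929-60501228 for Mbnl1. These positions belong to GRCm38.p6 and the peaks to mm9, so whether a given start lies inside a given peak was not tested. The CG dinucleotides are in capitals.
Msl2 start 1: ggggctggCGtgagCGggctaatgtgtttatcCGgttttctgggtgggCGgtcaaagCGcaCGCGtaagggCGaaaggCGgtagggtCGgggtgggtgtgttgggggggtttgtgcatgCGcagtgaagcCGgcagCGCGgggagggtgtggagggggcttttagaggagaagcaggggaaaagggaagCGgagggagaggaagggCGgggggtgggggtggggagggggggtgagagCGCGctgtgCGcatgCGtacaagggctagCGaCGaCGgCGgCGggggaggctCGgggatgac
Msl2 start 2: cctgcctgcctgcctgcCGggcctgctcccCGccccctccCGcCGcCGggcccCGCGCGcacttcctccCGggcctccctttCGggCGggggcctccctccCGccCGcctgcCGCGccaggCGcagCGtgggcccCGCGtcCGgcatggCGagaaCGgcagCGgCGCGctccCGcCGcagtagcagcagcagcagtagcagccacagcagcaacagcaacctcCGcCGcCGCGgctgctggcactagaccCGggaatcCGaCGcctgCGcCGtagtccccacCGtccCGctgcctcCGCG
Mbnl1 start 1: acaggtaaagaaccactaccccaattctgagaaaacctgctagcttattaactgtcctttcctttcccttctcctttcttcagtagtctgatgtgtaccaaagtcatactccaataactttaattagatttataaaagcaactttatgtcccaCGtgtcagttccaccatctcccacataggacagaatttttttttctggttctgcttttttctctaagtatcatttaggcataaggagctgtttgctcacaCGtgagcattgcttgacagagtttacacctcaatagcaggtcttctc
Mbnl1 start 2: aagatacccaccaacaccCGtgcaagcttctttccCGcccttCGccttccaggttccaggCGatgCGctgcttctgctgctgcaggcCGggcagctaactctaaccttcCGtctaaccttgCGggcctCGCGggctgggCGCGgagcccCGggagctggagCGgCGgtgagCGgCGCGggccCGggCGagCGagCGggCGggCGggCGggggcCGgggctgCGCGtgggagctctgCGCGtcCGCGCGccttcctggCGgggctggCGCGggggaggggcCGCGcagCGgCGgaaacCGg

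Both Msl2 starts and the second Mbnl1 start were rich in CG, and the first Mbnl1 start was not. The Msl2 starts held 26 and 40 CG dinucleotides in 300 bases, counts that 16.9% and 3.91% of the 32851 mouse promoter entries reached. The second Mbnl1 start held 41, a count that 3.46% of the entries reached. The first Mbnl1 start held 2, a count that 85.9% of the entries reached, against a median of 7 over all entries. Its G and C content was 39.3%, whereas the second start had 75% and the Msl2 starts 67.7% and 78.0%.

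Short promoter motifs followed the same division, but they are built of the bases counted above and so are no separate evidence of it. The motif GGGCGG, a binding sequence of Sp1-type factors, contains a CG, was counted on both strands with overlapping sites included, and is held by 35.7% of all entries. It occurred 2 and 3 times in the Msl2 starts, 4 times in the second Mbnl1 start and not in the first. The first Mbnl1 start held CCAAT 2 times (in 37.4% of all entries), TATAAA 2 times (13.6%) and the palindrome CACGTG 2 times (7.15%), all searched on both strands. These 3 motifs were not found in the other 3 windows. CACGTG also contains a CG, and the 2 CG dinucleotides of the first Mbnl1 start are those of its 2 CACGTG sites. The 2 TATAAA matches overlap on opposite strands in a single stretch, tttataaa. The starts of Mbnl1 lay 28.3 kb apart and those of Msl2 708 bp apart, within GRCm38.p6.

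Msl2 carried the strongest H3K79me2 enrichment of the whole list, in a compact block followed by a weaker one. The first Msl2 peak, chr9:100975675-100989491, was 13.8 kb wide and had a pileup of 250.4 over a control background of 12.07. Pileup is the peak caller's read coverage of the pooled H3K79me2 libraries, and the control background is the coverage it set against it, recovered here from the deposited fold enrichment. The authors' deposited fold for this peak was 19.2 and its −log10 q 236.1, both the highest of 18992. Its pileup was the third highest of the list and the highest of the 1015 peaks on chromosome 9.

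The second Msl2 peak, chr9:100994082-101014759, began 4.59 kb after the first one ended. It was 20.7 kb wide, with a pileup of 151.7 over a control background of 11.6 and a fold of 12.09. Its pileup ranked 117 in the list and its fold 83. The first peak thus had 1.65 times the pileup of the second, over a near-equal control background, and the second was 1.497 times as wide. Of the second peak 77.0% lay inside the window and its last 4759 bp ran past it. In GRCm38.p6 the next protein-coding gene after Msl2 is Ppp2r3a, which encodes a regulatory subunit of protein phosphatase 2A and lies on the minus strand, so that both genes end toward each other. How much of the second peak belongs to either gene was not tested.

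Mbnl1 carried a strong block of similar build and, after it, a far longer one. The main block, chr3:60273447-60294006, was 20.6 kb wide with a pileup of 219.4 over a control background of 13.3. Its fold was 15.4, the sixth highest of the list, and its −log10 q of 184.8 was the second highest, next to that of Msl2. Its pileup ranked 5 in the list and was the highest of the 843 peaks on chromosome 3.

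The long Mbnl1 block, chr3:60298784-60432063, began 4.78 kb further on and covered 133.3 kb. Its pileup was 175.3 over a control background of 12.7, with a fold of 12.8, values that may be averages over that length. Among the 154 peaks at least 100 kb wide, whose median pileup was 78.5 and median fold 6.27, it had the highest pileup and the second highest fold. The nearest of them in pileup, chr8:125411485-125571245, had 174.9 and a higher fold of 13.5. The order of these values has no error to judge it by. The long block is also one of the 874 peaks of at least 50 kb.

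The remaining Mbnl1 peak, chr3:60270997-60271997, was far weaker than both blocks. It was 1001 bp wide, and its pileup of 26.3 over a control background of 13.5 gave a fold of 1.88, at a −log10 q of 2.03. It ended 1449 bp before the main block and was weaker than the median peak of the list, which had a pileup of 27.2 and a fold of 2.28. It lay wholly inside the window and adds 1001 bp to the 153.8 kb of the other 2.

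**Figure D1:**
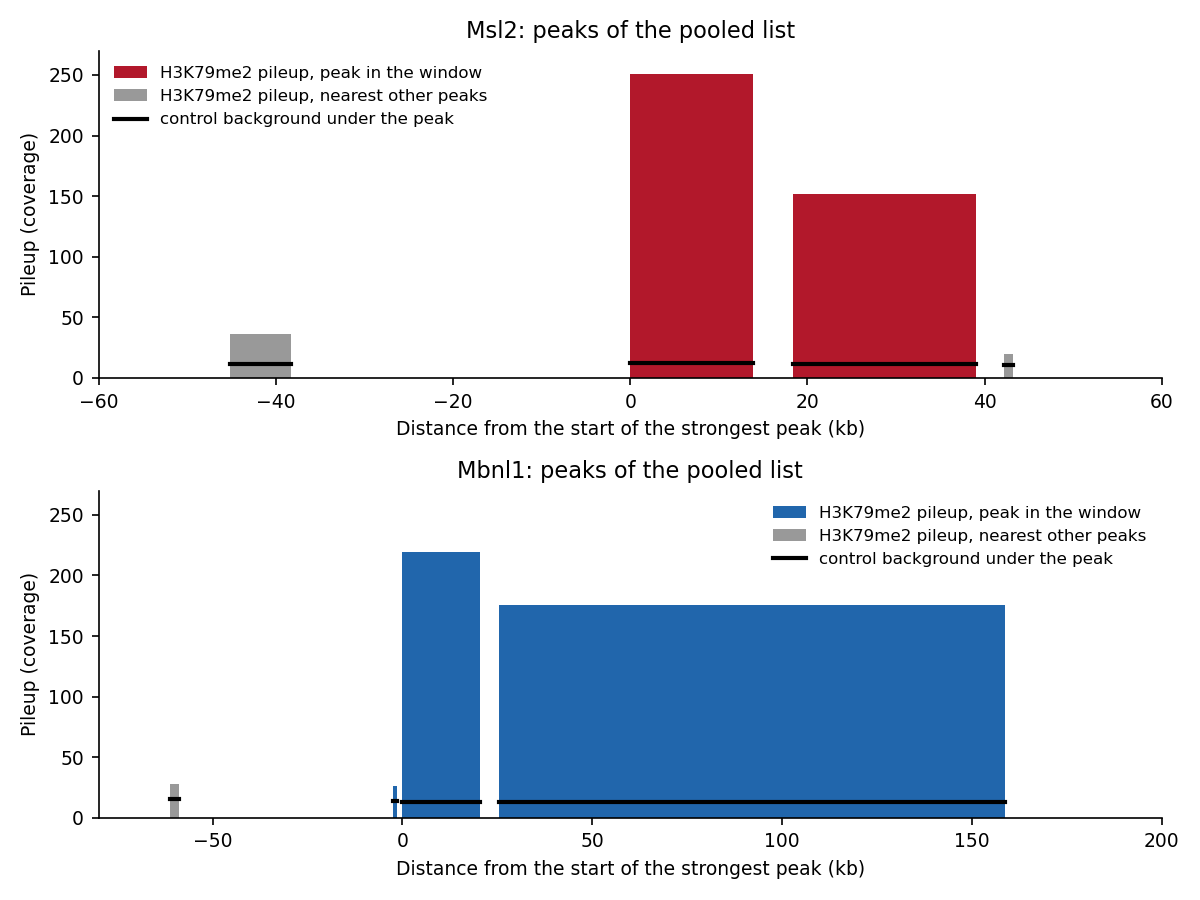
Peaks of the pooled list around Msl2 (top) and Mbnl1 (bottom), to scale, by distance from the start of the strongest peak in kb. Bar height is the H3K79me2 pileup of each peak (1 value per peak, no error), black lines are the control background; at both genes a block above 200 is followed within 5 kb by a second block above 150, which is 20.7 kb wide at Msl2 and 133.3 kb wide at Mbnl1.

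Both loci shared an order: the narrower and higher block came first along the plus strand, on which RefSeq places both genes, and the wider and lower one second. The pileup of the first block over that of the second was 1.65 at Msl2 and 1.25 at Mbnl1. The gaps between the blocks, 4590 bp at Msl2 and 4777 bp at Mbnl1, were close in length. The 122 peaks with a pileup of at least 150 held 3 pairs of neighbours at most 5 kb apart, a count made after the values were seen, on the pileups for which the genes were chosen. Of these, 2 were the Msl2 and Mbnl1 pairs. The third, chr2:98502298-98503162 and chr2:98505057-98507549, had pileups of 251.5 and 237.6 over control backgrounds of 167.5 and 149.5, and folds of 1.499 and 1.58. Its peaks were 865 and 2493 bp wide, so the narrower and higher one also came first there, at a low fold. The order is thus not particular to Msl2 and Mbnl1. With a pileup of at least 100 there were 16 such pairs among 1337 peaks, and the order within them was not counted. What lies in the gaps, and whether reads could be placed there, was not tested.

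Of the 5 peaks in the windows, 4 had a fold of at least 8, which 6.53% of the list reached. The same 4 had a pileup of at least 150, which 0.642% of the list reached. The pair was picked for these values, so the counts carry no weight of their own.

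Mbnl1 held more marked sequence and Msl2 the higher peak. The strongest Msl2 peak had 1.14 times the pileup of the strongest Mbnl1 peak and 1.25 times its fold, with 0.672 times its width. No spread is known for either, so this difference could not be tested. The peaks covered 34.5 kb at Msl2 and 154.8 kb at Mbnl1, which is 4.49 times as much at Mbnl1. Weighted by width, the mean pileup over all peaks was 191.2 at Msl2 and 180.2 at Mbnl1, a smaller gap than that of the strongest peaks.

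Taken as pileup times width, the peaks of Mbnl1 together held 0.182% of the total over all peaks and those of Msl2 0.0431%. Width enters this product, and the mean pileups of the loci were close, so the difference largely repeats that in covered bases. The long Mbnl1 block ranked ninth in the list by this product and first on chromosome 3, with 0.153% of the total over all peaks. The first and second Msl2 peaks ranked 1135 and 1300, with 0.0226% and 0.0205%. At Msl2 the second peak held 47.5% of the product of its locus, and at Mbnl1 the long block held 83.7%. The main Mbnl1 block ranked 770.

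Among peaks of like width, 3 of the 5 had the highest pileup. How many peaks of the whole list were the highest among their own like widths was not counted. Wide peaks tend to have higher pileups in this list, so each member was also ranked among the peaks whose width lay within 25% of its own. The first Msl2 peak had the highest pileup and the highest fold of 1988 such peaks. The main Mbnl1 block had the highest pileup and fold of 1752, and the long block the highest pileup and second highest fold of 123. The second Msl2 peak ranked 26 by pileup and 19 by fold among 1743. The narrow Mbnl1 peak ranked 172 by pileup and 798 by fold among 1872. With widths within 50%, the main Mbnl1 block was at the 99.97th percentile of pileup and no longer the highest. The genes were chosen for their pileups, so these ranks only describe the peaks.

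**Figure D2:**
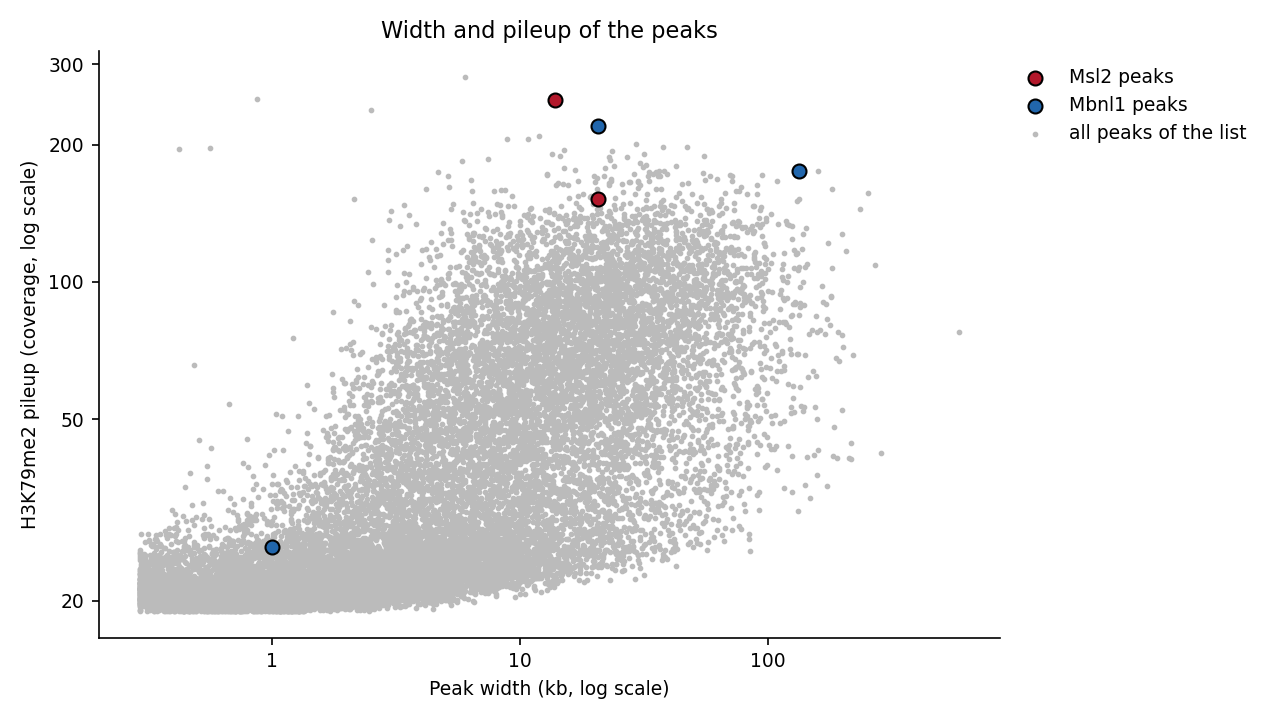
Width in kb (log scale) and H3K79me2 pileup (log scale) of the 18992 peaks, 1 point per peak, with the 2 Msl2 peaks in red and the 3 Mbnl1 peaks in blue. The strongest Msl2 and Mbnl1 peaks, at 250.4 and 219.4, lie above all other peaks within 25% of their width, the long Mbnl1 block lies at the upper right with 175.3, and the narrow Mbnl1 peak lies within the bulk at 26.3.

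The highest pileups of the list lay over very different control backgrounds. Of the 5 highest pileups, the 3 that were neither gene lay over raised background. The highest, chr1:90168047-90174054, had a pileup of 280.6 over a background of 46.9 and a fold of 5.88. The others were the chr2 pair given above. The first Msl2 peak and the main Mbnl1 block had backgrounds of 12.07 and 13.3, or 1.15 and 1.27 times the lowest of the list, 10.5. With peaks over at least 2 times the lowest background left out, Msl2 had the highest pileup and Mbnl1 the second highest.

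The pileups next below Mbnl1 were close to one another. They were 208.7 at chr1:9726387-9738351, 205.7 at chr19:47654245-47665047, 205.2 at chr1:193212026-193220909, 200.3 at chr3:138188610-138217944 and 197.9 at chr11:75543082-75580694. Their folds lay between 14.5 and 15.8 over backgrounds of 11.6 to 13.2. The fold of the main Mbnl1 block, 15.4, lay within this range, and that of Msl2, 19.2, lay above it. The rank of Mbnl1 by pileup over these peaks therefore does not carry over to the fold.

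**Figure D3:**
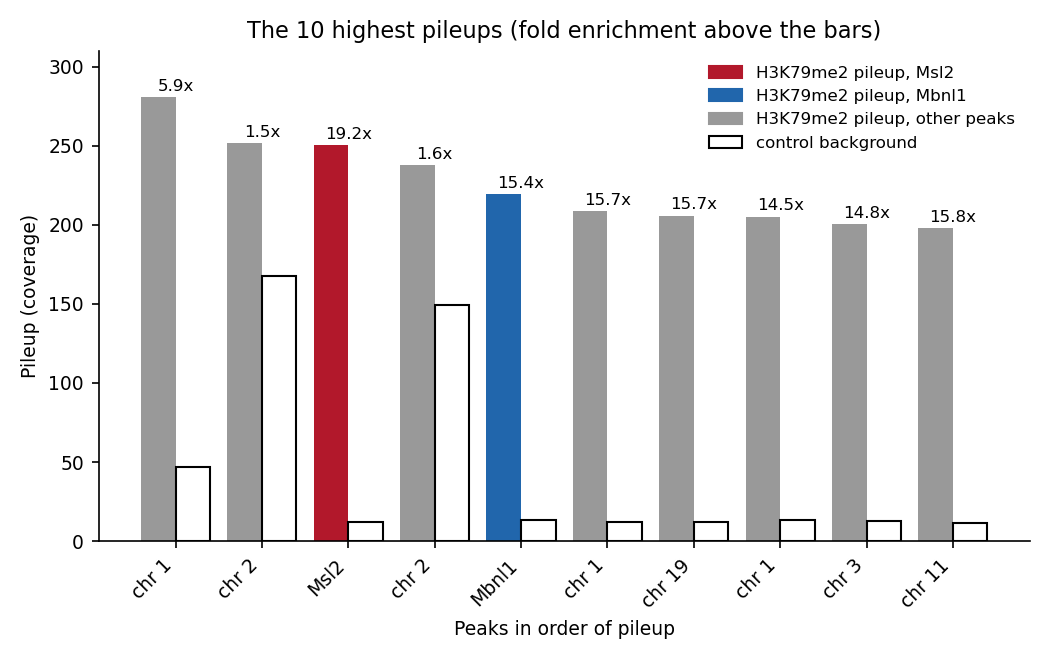
The 10 highest H3K79me2 pileups in order (filled bars, coverage), each with the control background under the same peak (open bars) and the fold enrichment printed above; bars start at 0 and no error is known. Msl2 (250.4) and Mbnl1 (219.4) stand over backgrounds of 12.07 and 13.3, whereas the 3 grey peaks of the first 5 stand over 46.9 to 167.5.

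The control background was not equal at both genes. At Mbnl1 it was 12.7 to 13.5 across the 3 peaks, at or above the 95th percentile of the list (12.7). At Msl2 it was 12.07 and 11.6, against a median of 11.2 over all peaks and 11.8 over the 1240 peaks at or above 8-fold. The main and long Mbnl1 blocks had a higher background than 96.9% and 89.8% of those 1240 peaks. For the first and second Msl2 peaks these shares were 63.5% and 37.7%. The strongest Msl2 peak had 0.904 times the background of the strongest Mbnl1 peak. That background was recovered from pileup and fold, so this value only restates that the ratio of folds exceeded the ratio of pileups.

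The 3 nearest peaks on each side of Msl2 had folds of 1.78 to 3.09, and only the highest of these exceeded the list's median of 2.28. Nearest before Msl2 lay a peak of 6.90 kb, chr9:100930468-100937364, 38.3 kb away with a pileup of 36.6 and a fold of 3.09. The next 2 before it were 202.8 and 210.1 kb away, with folds of 1.78 and 2.19. After Msl2, just outside the window's last peak, a peak of 0.964 kb lay 3.12 kb away with a pileup of 19.7 and a fold of 1.78. The following 2 were 118.5 and 121.4 kb away, with folds of 1.92 and 1.84. None of these 6 peaks reached a fold of 4.

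At Mbnl1 the 3 peaks before the window lay 56.5, 145.6 and 378.9 kb away, and their pileups of 27.99, 24.7 and 20.98 gave folds of 1.77, 1.95 and 1.86. After the long block came 372.8 kb with no peak. A peak of 8.86 kb then followed, chr3:60804913-60813773, with a pileup of 73.7 and a fold of 5.09. The third peak after the window, chr3:61168490-61176058, was 736.4 kb away and reached a pileup of 121.03 and a fold of 9.28. In GRCm38.p6 the protein-coding neighbours of Mbnl1 are Sucnr1, a receptor for succinate, before it and P2ry1, a receptor for ADP, after it. Before Msl2 lies Pccb, a subunit of propionyl-CoA carboxylase. None of the peaks around either gene was assigned to these neighbours.

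Outside the blocks, the nearest other peak with a fold of at least 8 lay 526.8 kb before the Msl2 blocks, with a fold of 9.71, and 5.06 Mb after them, with a fold of 9.51. At Mbnl1 the distances were 1776 kb before, with a fold of 10.2, and 736.4 kb after. With peaks of such a fold taken as 1 block where at most 5 kb apart, as at both genes, the list held 1226 blocks. Their median distance to the nearest other block was 332.0 kb, with quartiles of 108.7 and 969.6 kb. The nearer distances, 526.8 kb at Msl2 and 736.4 kb at Mbnl1, exceeded those of 61.8% and 69.2% of the blocks. Within 1 Mb on each side of their blocks, 13 peaks lay before Msl2 (median fold 2.17) and 5 after it (1.90). The peaks before Msl2 covered 274.1 kb, with the widest at 133.5 kb and a fold of 6.63, and those after it 11.9 kb. At Mbnl1, 3 lay before the window (median fold 1.86), covering 8.63 kb, and 3 after it (5.09), covering 16.8 kb. A stretch with no peak can still hold mark that was not called. The lowest pileup of the list was 19, but peaks were called against control background, so uncalled mark can exceed 19 where that background is higher.

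**Figure D4:**
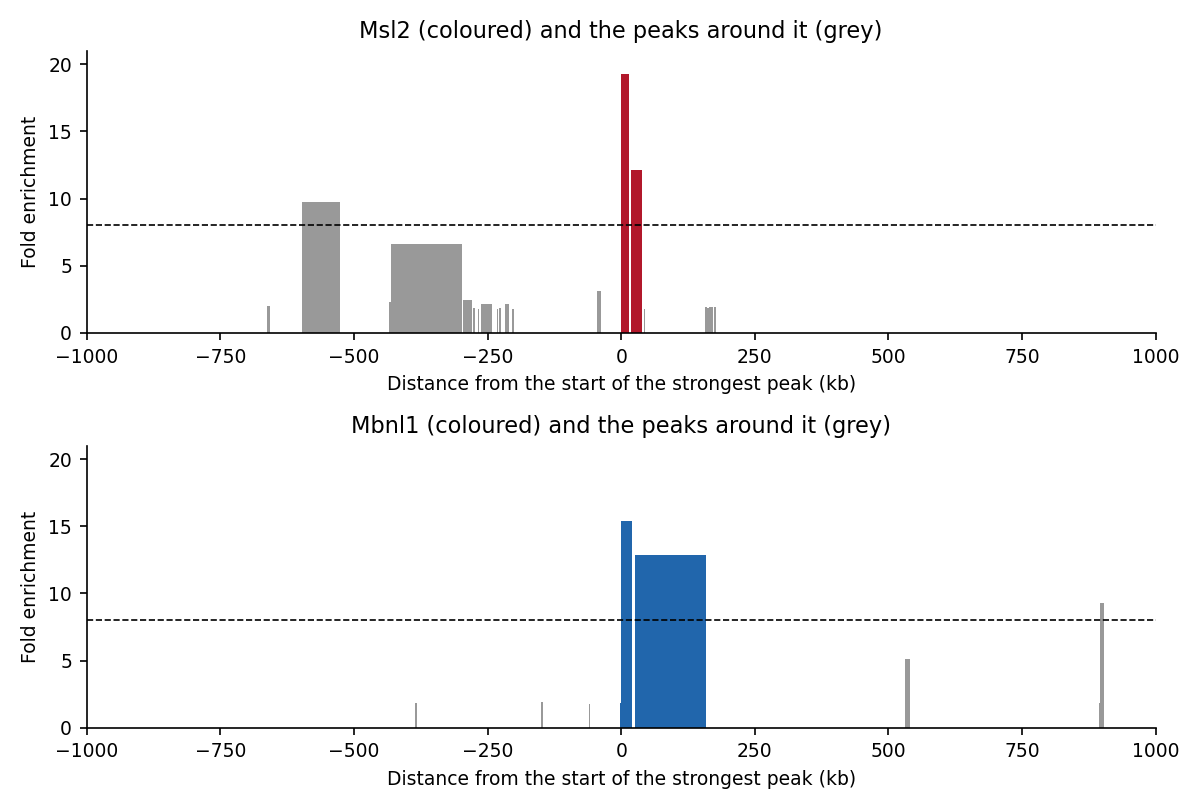
Fold enrichment of all peaks within 1 Mb of the start of the strongest peak of Msl2 (top, red) and Mbnl1 (bottom, blue), with other peaks in grey and peaks under 3 kb drawn 3 kb wide. The dashed line marks a fold of 8; beyond the blocks of each gene, 1 grey peak crosses it, at a fold of 9.71 before Msl2 and of 9.28 after Mbnl1.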

How the data were processed

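H3K79me2 and input libraries (3 each) were grouped by their titles. The submitters' processing notes name MACS2, bedtools 2.25.0, SAMtools, GSNAP and CASAVA 1.8.2, and build mm9; settings, and which inputs served as control, are not given in the sources used here. Each peak has, per the file headers, a deposited width, pileup (coverage signal), fold enrichment (a ratio to control background) and −log10 p and q values. These are the authors' values for pooled reads, used only to describe and rank peaks within the list. For 99.99% of peaks the −log10 p in the authors' deposited table exceeded the Poisson value of the peak's own pileup and background. That Poisson value was for a count at or above the pileup rounded down, which makes its −log10 smaller. The share therefore cannot tell whether a peak's values come from 1 position. They may be averages over the peak, which was not tested.

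Dividing pileup + 1 by the fold and subtracting 1 gave the control background, which assumes that the peak caller added 1 to both terms of its ratio. No test was run, since there is 1 pooled value per peak. The genes named are Msl2 and Mbnl1, with the 3 nearest peaks on each side, the 10 highest pileups and the neighbouring genes; any other region was picked with its value in view. The members, windows and lists were chosen with earlier results of these data known. Promoters came from RefSeq (GRCm38.p6), in which both genes matched; its coordinates were not compared with the peaks. The code for ranks, merging and background was checked on simulated data. The simulated folds were built with the same added 1, so that check could not test this assumption or the effect of averaging over a peak. Alternatives were the peak threshold, merging, window edges, overlap, measure of strength, peaks ranked and width range. The software was Python 3.11.15 with pandas 2.3.3, matplotlib 3.10.9, scipy 1.17.1 and numpy 2.4.6.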

Additional observations from a re-analysis of the deposited data

How the results depend on the processing

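No paired analysis was possible because each peak has a single pooled value, and for the same reason no replicate could be left out. Of 41 alternatives, 27 left their value as it was or within 1.5 times (for percentiles, within the exact binomial 95% interval). That interval treats peaks of 1 fixed list as independent draws, so it served only as a tolerance. The main Mbnl1 block at widths within 50% is among the 27, though it was no longer the highest there. Merging peaks across 5 kb, chosen after seeing the data, left 1 region in place of 2 peaks at Msl2 and 1 in place of 3 at Mbnl1. The other 12 moved the rank by pileup of the strongest peak, which was 3 for Msl2 and 5 for Mbnl1. It became 1 and 2 without peaks over raised control background, 2 and 3 among peaks of at least 5 kb, 1 and 6 by fold, 1135 and 770 by pileup times width, 1 and 3 after merging across 3 kb, and 8 and 14 after merging across 5 kb, which averages strong and weak blocks. The ratio of Msl2 to Mbnl1, 1.14 by pileup, ran from 1.06 by width-weighted mean to 1.25 by fold, above 1 under its 3 alternatives. Depth per library is unknown, and weaker mark than a pileup of 19 is not in the list.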
